A study of Rattus norvegicus with 8 samples.

Results

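Glycolysis and the response to low oxygen were followed in the cervix of pregnant rats through 39 transcripts, out of 29884 gene symbols counted. The 39 were taken by symbol. They were the enzymes of glycolysis, the kinases that switch off pyruvate dehydrogenase, genes of oxygen sensing and a set of hypoxia-inducible genes. All 39 had a row of counts. Of these, 38 passed the filter on low counts, as did 16117 genes in all, and Pgam2 did not. The LPS group held 4 libraries from pregnant rats of the Sprague-Dawley strain, genotype WT in the labels, given 100 µg/kg lipopolysaccharide (LPS, the endotoxin of Gram-negative bacteria) into the peritoneal cavity on gestational day 17. The PBS group held 4 libraries from rats of the same strain and genotype given an equal volume of phosphate-buffered saline (PBS) on that day. RNA of the whole cervix was sequenced 12 hours later, with 39580706 to 40408153 counts per LPS library and 33191039 to 40634384 counts per PBS library. The series' design text calls the libraries biological replicates.

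Glycolysis splits glucose to pyruvate in the cytosol and yields ATP without oxygen. Lactate dehydrogenase then turns pyruvate to lactate, or pyruvate dehydrogenase passes it to the mitochondria. When oxygen is short, prolyl hydroxylases of the Egln family stop marking hypoxia-inducible factor (HIF) for breakdown, and HIF raises the transcription of most glycolytic enzymes and of genes for vessel growth and acid handling. Inflammatory signals are known to raise Hif1a and glycolysis in myeloid cells such as macrophages.

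The samples were pieces of tissue, so fewer cells of a type and less RNA per cell could not be told apart in any value below. Levels are CPM, the reads of a gene per 1000000 reads of its library after TMM scaling. The levels of 10 columnar epithelium markers summed to 23095 to 24503 CPM in LPS and 17823 to 28971 CPM in PBS. Most of that sum was the mucin Muc5b, and 1 of the 10, the keratin Krt7, was called lower, with a mean of 411 CPM in LPS and 928 CPM in PBS. Those of 10 fibroblast markers summed to 17337 to 27121 CPM in LPS, against 12327 to 15637 CPM in PBS, with 4 called higher. Markers of white cells were higher in LPS. The sum of 12 neutrophil markers was 390 to 1634 CPM in LPS and 36.1 to 58.6 CPM in PBS, with 7 of the 8 tested called higher and Ltf at 0 in every library, and that of 12 macrophage and monocyte markers was 1551 to 2330 CPM in LPS and 768 to 1194 CPM in PBS, with 8 of 12 called higher. Smooth muscle markers summed to 3837 to 5581 CPM in LPS and 4617 to 12818 CPM in PBS, with 8 of 10 called lower. Red cell markers summed to 125 to 687 CPM in LPS and 745 to 2326 CPM in PBS, with 7 of the 10 tested called lower. The part of these differences in the results below was not tested.

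Most of the tested enzymes of glycolysis were called higher after LPS, taken gene by gene. The total transcript of a step was not computed. Of the 38 tested genes, 15 (39.5%) were higher in LPS at an adjusted p under 0.05, against 9.49% of all genes tested, and 1 (2.63%) was lower, against 7.45%. The 15 were 13 of the 23 tested glycolytic enzymes, the kinase Pdk3 and the carbonic anhydrase Car9, and the gene that was lower was Car12, another carbonic anhydrase. The median log2 fold change was 0.52 over the 38 genes and 0.01 over all genes tested. In 13 of the 38 (34.2%) every LPS library lay above every PBS library, against 12.9% of all genes, and in 2 (5.26%) every LPS library lay below, against 10.5%. The number called higher was 7 without PBS replicate 2, 8 without LPS replicate 1 and 9 without PBS replicate 1. Of the 16 calls, 8 held whichever single library was left out: those of Hk3, Tpi1, Gapdh, Pgk1, Pkm, Pdk3, Car9 and Car12.

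**Figure D1:**
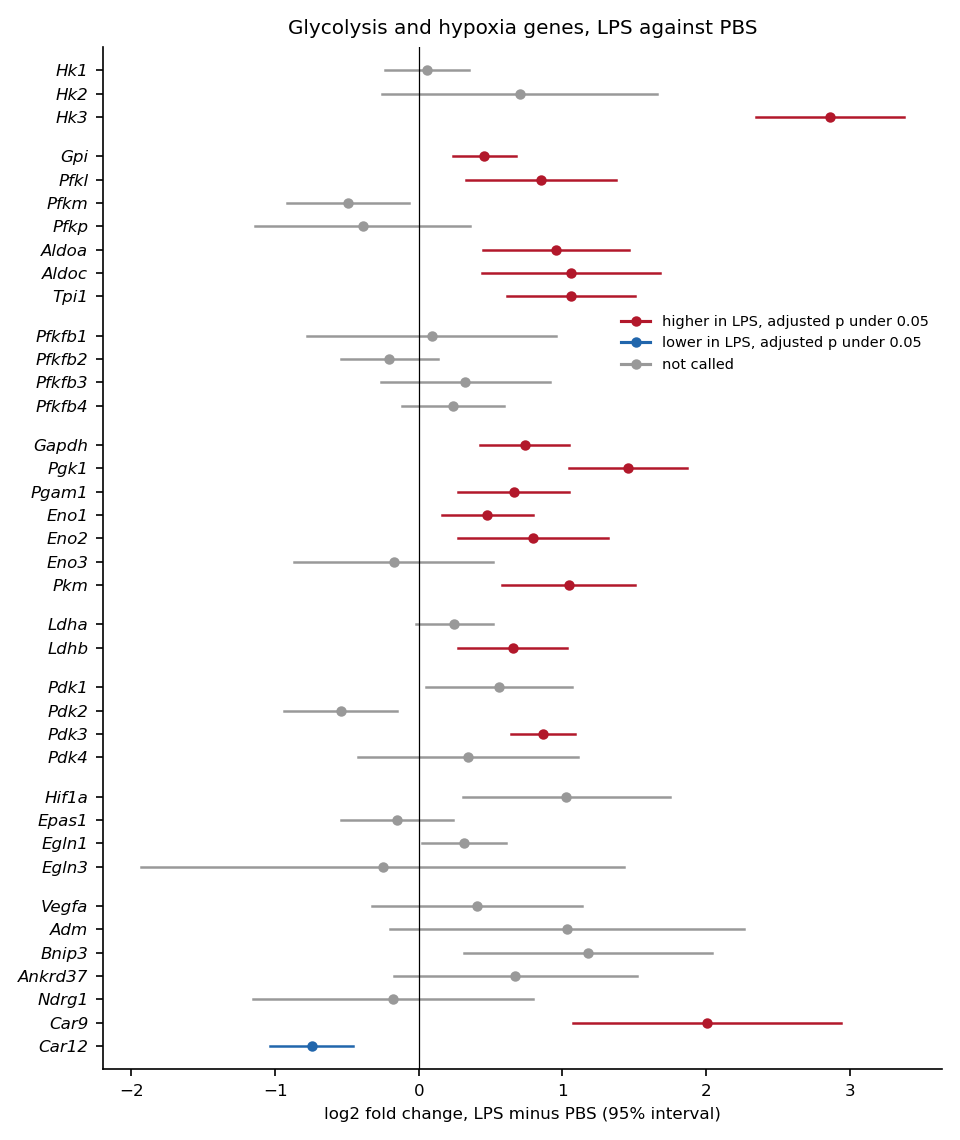
Log2 fold change, LPS minus PBS, of the 38 tested genes grouped by role from hexokinases (top) to hypoxia-inducible targets (bottom), with points for estimates and bars for 95% intervals that are not adjusted for the number of genes. The 13 enzymes called higher (red) run from 0.46 for Gpi to 2.86 for Hk3, and the bar of Egln3 is the widest.

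Entry of glucose into the pathway is catalysed by the hexokinases, and 1 of the 3 measured here was called. Hk3, the form found mostly in white cells, had 14.4, 11.5, 16.0 and 11.6 CPM in LPS replicates 1 to 4, against 1.61, 1.83, 2.54 and 1.35 CPM in PBS replicates 1 to 4. Its groups lay far apart, at 7.26-fold (log2 fold change 2.86, SE 0.23, adjusted p = 0.0004). Hk1, the form most tissues keep at a steady level, had a mean of 113 ± 16.6 CPM in LPS and 109 ± 12.2 CPM in PBS (SD, n = 4 each), and the 95% interval of its log2 fold change ran from -0.23 to 0.35. Hk2, the inducible form of muscle and growing cells, had 37.3, 42.0, 82.5 and 77.9 CPM in LPS, against 19.5, 22.2, 64.6 and 40.97 CPM in PBS. LPS replicates 3 and 4 and PBS replicate 3 were its high libraries, the groups overlapped, and it did not pass (0.70, SE 0.42, adjusted p = 0.284). Of all hexokinase counts, which are not corrected for transcript length, Hk3 made up 5.66 to 8.06% in LPS and 1.003 to 1.46% in PBS.

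In the upper steps, up to the splitting of the sugar, 5 of 7 genes rose. Gpi, which turns glucose phosphate to fructose phosphate, had 388, 338, 405 and 346 CPM in LPS, against 266, 262, 299 and 248 CPM in PBS (0.46, SE 0.10, adjusted p = 0.0143). Every LPS library was above every PBS library. Its call was lost without PBS replicate 2, where the adjusted p was 0.0521. Of the 3 phosphofructokinases, which set the pace of the pathway, 1 was called. Pfkl, the liver form, had 151, 127, 214 and 166 CPM in LPS, against 88.2, 61.3, 127 and 88.4 CPM in PBS (0.85, SE 0.23, adjusted p = 0.0374). The lowest LPS library stood only just above PBS replicate 3 (126.53 against 126.51 CPM). Pfkm, the muscle form, had 60.4, 58.4, 36.3 and 60.5 CPM in LPS and 60.5, 86.6, 69.8 and 86.9 CPM in PBS. All 4 LPS values were the lower ones, though LPS replicate 4 and PBS replicate 1 differed by less than 0.1 CPM, and the gene did not pass (-0.49, SE 0.19, adjusted p = 0.104). Pfkp, the platelet form, ran from 52.1 to 84.6 CPM in LPS and from 37.3 to 121 CPM in PBS (adjusted p = 0.45). Pfkl thus made up 53.4 to 63.9% of phosphofructokinase counts in LPS and 26.8 to 41.6% in PBS.

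The aldolases cleave the sugar and Tpi1 brings both pieces to 1 form. Tpi1 had 326, 295, 510 and 396 CPM in LPS, against 185, 142, 222 and 182 CPM in PBS, without overlap (1.06, SE 0.20, adjusted p = 0.00883). Aldoc, the aldolase known from brain, had 34.6, 24.5, 22.2 and 18.3 CPM in LPS, against 9.66, 10.4, 18.5 and 9.20 CPM in PBS. PBS replicate 3 reached the level of LPS replicate 4, and the gene rose by 1.06 on the log2 scale (SE 0.27, adjusted p = 0.0309). Aldoa, the aldolase of most tissues, had 5.76, 3.94, 7.37 and 4.67 CPM in LPS, against 2.78, 2.48, 3.03 and 2.91 CPM in PBS (0.96, SE 0.22, adjusted p = 0.0223). These levels rest on 154 to 291 counts per LPS library and 97 to 123 counts per PBS library. RefSeq's rat annotation (assembly GRCr8) names 228 loci as copies of 12 of the 39 genes. Among them are 91 of Gapdh, 34 of Eno1, 31 of Ldha and 20 of Pkm. Another 13 are of Pgam1, 9 each of Aldoa and Pgk1, and 5 of Tpi1. Of the 228, 0 had a row of counts under their own symbol. How reads that match such copies were counted is not given in the sources used here. The levels of these genes are therefore uncertain. Of the upper enzymes, Pfkl and Aldoc were not called without any 1 of 6 libraries, all but LPS replicate 2 and PBS replicate 3 for Pfkl and all but LPS replicate 4 and PBS replicate 3 for Aldoc, with adjusted p up to 0.0893 and 0.0911. Aldoa was not called without LPS replicate 1 or PBS replicate 2 (adjusted p up to 0.0703).

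The lower, energy-yielding steps gave 6 genes called higher of 7 tested. Pgk1, which makes the first ATP of the pathway, had 647, 481, 821 and 523 CPM in LPS, against 223, 194, 262 and 221 CPM in PBS. Every LPS library was far above the highest PBS library, and the change was 2.75-fold (1.46, SE 0.18, adjusted p = 0.00184). Pkm, the pyruvate kinase of the last step, had 732, 583, 1109 and 734 CPM in LPS, against 406, 337, 458 and 331 CPM in PBS (1.04, SE 0.20, adjusted p = 0.011). Gapdh, the dehydrogenase that is often used as a reference transcript, had 1217, 977, 1465 and 1197 CPM in LPS, against 815, 641, 745 and 714 CPM in PBS, a change of 1.67-fold (0.74, SE 0.14, adjusted p = 0.00918). None of these 3 genes had overlapping groups, and LPS replicate 3 was the highest library for each.

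Pgam1, a phosphoglycerate mutase, had 393, 304, 497 and 464 CPM in LPS, against 266, 217, 311 and 255 CPM in PBS (0.66, SE 0.17, adjusted p = 0.0314). LPS replicate 2 fell within the PBS range. Eno1, the enolase of most tissues, had 777, 663, 1035 and 751 CPM in LPS, against 570, 543, 627 and 581 CPM in PBS (0.48, SE 0.14, adjusted p = 0.0484). Its groups did not overlap, and its adjusted p lay just under the threshold: it was 0.05245 with another scaling of library sizes (RLE) and 0.05034 with limma-voom. Eno2, the enolase known from neurons, had 45.6, 59.3, 72.1 and 40.4 CPM in LPS, against 31.1, 29.9, 41.9 and 22.3 CPM in PBS (0.80, SE 0.23, adjusted p = 0.0455). LPS replicate 4 lay within the PBS range. The sum of 14 neuron and peripheral glia markers was 33.5 to 289 CPM in LPS and 151 to 329 CPM in PBS. Eno3, the muscle enolase, ran from 1.77 to 3.399 CPM in LPS and from 1.71 to 3.602 CPM in PBS (adjusted p = 0.735). Pgam1 and Eno2 were not called without any 1 of 6 libraries, all but LPS replicate 2 and PBS replicate 3 for Pgam1 and all but LPS replicate 4 and PBS replicate 3 for Eno2, with adjusted p up to 0.094 and 0.117, and Eno1 kept its call only without LPS replicate 2 (adjusted p up to 0.134 otherwise). Without LPS replicate 3 the log2 fold changes were 0.56, 0.63 and 0.33.

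Pgam2, the mutase of skeletal muscle and sperm, was too sparse for the test. It had 5, 0, 2 and 4 counts in LPS replicates 1 to 4, against 9, 34, 12 and 51 counts in PBS replicates 1 to 4. All LPS libraries were below all PBS libraries. With no filter on low counts its log2 fold change was -3.34 (adjusted p = 0.0365). It passed the filter when 1 LPS library was left out, with adjusted p of 0.0548 to 0.0842, and without PBS replicate 1 (adjusted p = 0.0264). Markers of skeletal muscle summed to 39.1 to 85.0 CPM in LPS and 70.0 to 263 CPM in PBS, most of it Acta1. Of the 4 tested, Acta1 alone was called, as lower (-1.78, adjusted p = 0.0247). Tnnt3 (0.20, adjusted p = 0.716), Myl1 (0.79, adjusted p = 0.382) and Casq1 (-0.62, adjusted p = 0.239) were not called. Ckm, the muscle creatine kinase, did not pass the filter on low counts. It averaged 0.0367 CPM in LPS and 0.28 CPM in PBS. The part of these cells in the value of Pgam2 was not tested.

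**Figure D2:**
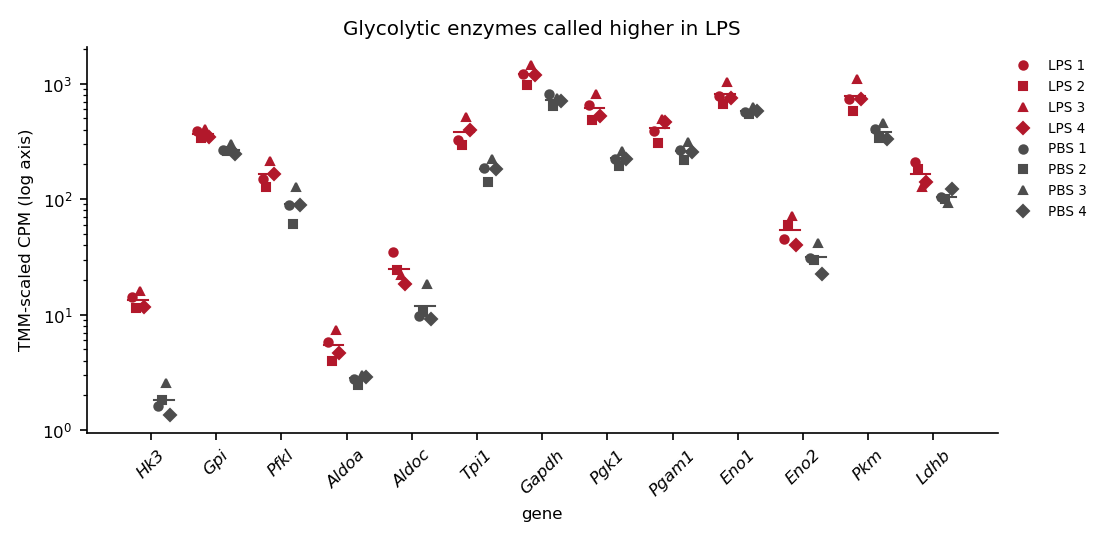
TMM-scaled CPM on a log axis of the 13 glycolytic enzymes called higher, for the LPS (red) and PBS (grey) libraries, with a symbol for each replicate number and a bar at the mean of 4. Groups are farthest apart for Hk3 and Pgk1, and overlap for Aldoc, Pgam1 and Eno2.

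Of the pair of lactate dehydrogenases, 1 was called. Ldhb, the heart form, had 210, 181, 127 and 140 CPM in LPS, against 104, 100.2, 92.4 and 122 CPM in PBS (0.65, SE 0.17, adjusted p = 0.0305). The groups did not overlap, and LPS replicate 3, the highest LPS library for 15 of the 23 tested enzymes, was the lowest here. Ldha, the muscle form and a classical HIF target, had 825, 773, 996 and 864 CPM in LPS, against 633, 687, 789 and 803 CPM in PBS (0.25, SE 0.12, adjusted p = 0.183). The 95% interval for Ldha ran from -0.02 to 0.52. The call of Ldhb was lost without any 1 of LPS replicates 1 and 2 and PBS replicates 1, 2 and 3, with adjusted p up to 0.0843. The share of Ldhb in the counts of the pair was 11.3 to 20.3% in LPS and 10.5 to 14.1% in PBS, so that the shares overlapped.

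The Pfkfb enzymes make and break the sugar phosphate that switches phosphofructokinase on, and none of the 4 was called. Pfkfb3, the strongly inducible form, had 30.7, 21.3, 40.5 and 37.3 CPM in LPS, against 21.7, 18.7, 37.9 and 25.5 CPM in PBS (0.32, SE 0.26, adjusted p = 0.424). PBS replicate 3 held more than 3 of the LPS libraries. The 95% intervals allowed a log2 fold change of up to 0.91 for Pfkfb3, 0.59 for Pfkfb4 and 0.96 for the sparse Pfkfb1, and of -0.54 to 0.13 for Pfkfb2. Unadjusted p-values for the 4 ranged from 0.166 to 0.817, and DESeq2 and limma-voom also called none of them.

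The pyruvate dehydrogenase kinases inactivate the enzyme that sends pyruvate to the mitochondria. Pdk3 rose, with 22.3, 23.1, 28.7 and 25.01 CPM in LPS, against 13.8, 13.5, 13.3 and 14.0 CPM in PBS (0.86, SE 0.10, adjusted p = 0.0013). No groups overlapped, and the PBS values were close to each other: 1.56% of all genes tested had as small a standard deviation of log2 CPM in PBS or smaller. Pdk1, the kinase best known as a HIF target, had 22.2, 21.7, 36.6 and 41.3 CPM in LPS, against 18.0, 22.3, 23.6 and 18.9 CPM in PBS (0.56, SE 0.22, adjusted p = 0.123). LPS replicates 3 and 4 were above all PBS libraries, and LPS replicates 1 and 2 were within their range. Pdk2 had 39.8, 33.5, 28.7 and 29.1 CPM in LPS, against 55.9, 55.0, 46.2 and 34.1 CPM in PBS, and missed the threshold (-0.54, SE 0.17, adjusted p = 0.0628). It passed with DESeq2 (adjusted p = 0.0209) and without PBS replicate 4 (-0.68, adjusted p = 0.0179). Pdk4, the kinase of fasting, overlapped between groups (adjusted p = 0.524). Of the counts of the 4 kinases, Pdk2 made up 26.1 to 41.4% in LPS and 46.8 to 57.1% in PBS, and Pdk3 22.4 to 28.4% in LPS and 13.4 to 19.1% in PBS.

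**Figure D3:**
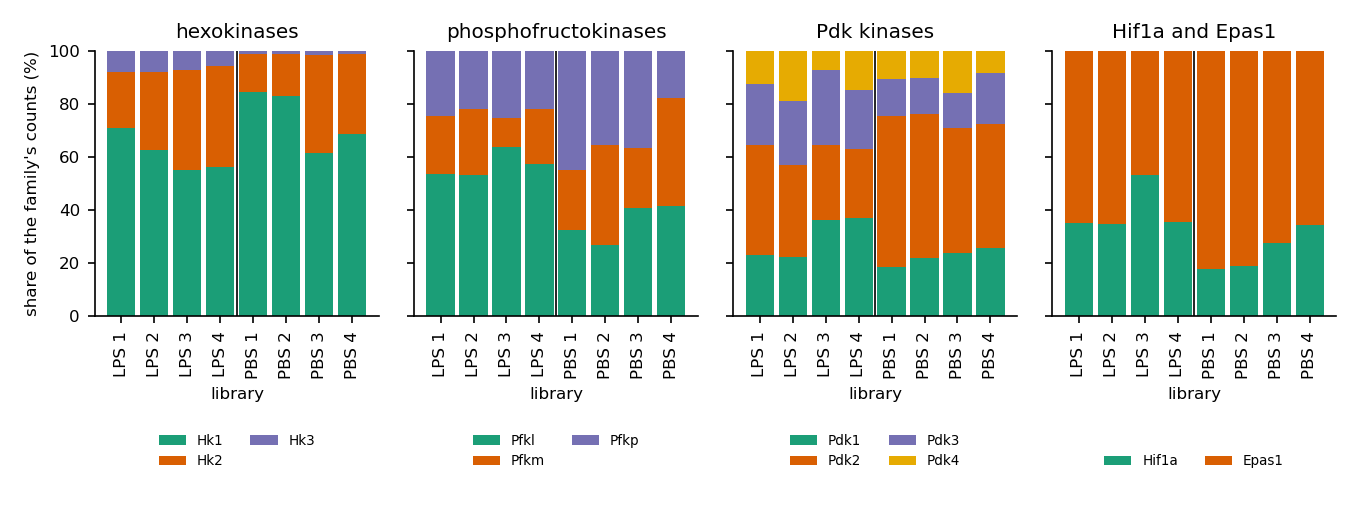
Share of each gene in the counts of its family (percent, not corrected for transcript length) in the 4 LPS and 4 PBS libraries, for the hexokinases, the phosphofructokinases, the pyruvate dehydrogenase kinases and the pair Hif1a and Epas1. The shares of Hk3, Pfkl, Pdk3 and Hif1a lie higher in every LPS library than in any PBS library, and those of Pdk2 and Epas1 lower.

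Of the 4 genes of oxygen sensing, none was called with edgeR, and 2 had an unadjusted p under 0.05 (Hif1a and Egln1). DESeq2 called 1 and limma-voom 0. Hif1a, the oxygen-regulated subunit of HIF, had 204, 222, 519 and 206 CPM in LPS, against 122, 120, 153 and 169 CPM in PBS. All LPS libraries were above all PBS libraries, with LPS replicate 3 far above the other 3. The gene missed the threshold (1.03, SE 0.32, adjusted p = 0.0571), and passed without LPS replicate 3, where the log2 fold change was 0.58 (adjusted p = 0.0325), and with DESeq2 (1.02, adjusted p = 0.00816). Epas1, the sister subunit that is strong in endothelium, had 378, 413, 456 and 375 CPM in LPS, against 563, 513, 403 and 323 CPM in PBS (-0.15, SE 0.17, adjusted p = 0.584). Its groups overlapped, as did the sum of 10 endothelium markers, at 401 to 628 CPM in LPS and 360 to 777 CPM in PBS. Of these markers 2 were called lower without overlap, Cldn5 (-0.81, adjusted p = 0.0242) and Emcn (-0.83, adjusted p = 0.0375), and their part in the value of Epas1 was not tested. Hif1a made up 34.9 to 53.2% of the counts of the pair in LPS and 17.8 to 34.4% in PBS. Egln1, the main prolyl hydroxylase, had 62.0, 57.9, 76.7 and 83.6 CPM in LPS, against 50.9, 52.9, 59.1 and 62.4 CPM in PBS (0.31, SE 0.13, adjusted p = 0.131). Egln3, the hydroxylase that HIF itself induces, had 8.03, 5.04, 24.4 and 19.9 CPM in LPS, against 4.32, 8.02, 43.3 and 12.6 CPM in PBS. Its highest library was PBS replicate 3, and its value, -0.25 (SE 0.74, adjusted p = 0.845), was 0.79 without that library (adjusted p = 0.43).

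Of the 7 hypoxia-inducible targets, 1 was higher and 1 lower in LPS, where 9.49% of all genes tested were higher and 7.45% lower. Both encode membrane-bound carbonic anhydrases, which turn carbon dioxide to bicarbonate and protons. Car9, among the most strictly hypoxia-dependent genes known, had 8.82, 11.9, 20.1 and 8.46 CPM in LPS, against 1.79, 2.005, 5.10 and 3.36 CPM in PBS, a change of 4.02-fold without overlap (2.01, SE 0.41, adjusted p = 0.0134). Car12, its relative of secretory epithelium, had 128, 129, 114 and 163 CPM in LPS, against 212, 203, 222 and 260 CPM in PBS (-0.75, SE 0.13, adjusted p = 0.00635). Every LPS library of Car12 was below every PBS library. Of the columnar epithelium markers, Krt7 was lower too, with no overlap (-1.17, adjusted p = 0.0018). The others overlapped between the groups and were not called, as did the sum, most of it Muc5b. Krt8 (-0.54, adjusted p = 0.0681) and Cdh1 (-0.38, adjusted p = 0.0566) lay nearest to the threshold. The rest were Krt18 (-0.24), Epcam (-0.11), Elf3 (-0.06), Muc1 (-0.04), Krt19 (0.02), Muc5b (0.03) and Muc4 (0.18). Squamous epithelium markers summed to 3183 to 4226 CPM in LPS and 4921 to 9176 CPM in PBS, with 3 of 10 tested called lower. Krt13, 1 of these 3, averaged 94.9 CPM in LPS and 2197 CPM in PBS. The other tested squamous markers were not called, among them Krt14 (0.12), Tp63 (0.14), Krt5 (-0.30) and Dsg3 (-1.14). The part of either epithelium in the value of Car12 was not tested.

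The other 5 targets did not pass, and each was high in the same pair of LPS libraries. Adm, the vasodilator adrenomedullin, had 17.3, 9.27, 49.5 and 53.6 CPM in LPS, against 13.2, 9.03, 19.6 and 21.7 CPM in PBS (1.03, SE 0.54, adjusted p = 0.224). Bnip3, a receptor for the removal of mitochondria, had 42.4, 35.8, 98.4 and 105.5 CPM in LPS, against 34.3, 26.5, 41.7 and 22.1 CPM in PBS (1.18, SE 0.38, adjusted p = 0.0652). LPS replicates 3 and 4 stood above all PBS libraries for both genes, and LPS replicate 2 within the PBS range. Bnip3 was called with DESeq2 (adjusted p = 0.0106) and without LPS replicate 2 (1.39, adjusted p = 0.0335).

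Vegfa, the main growth factor of vessels, had 103, 119, 215 and 286 CPM in LPS, against 134, 102, 171 and 138 CPM in PBS (0.41, SE 0.32, adjusted p = 0.421). Ankrd37, a small hypoxia-inducible ankyrin protein, had 2.64, 3.89, 7.01 and 6.11 CPM in LPS, against 2.25, 2.13, 4.68 and 3.27 CPM in PBS (0.67, SE 0.37, adjusted p = 0.247). Ndrg1, a stress-induced gene of differentiating epithelium, had 199, 141, 421 and 379 CPM in LPS, against 567, 257, 284 and 182 CPM in PBS (-0.18, SE 0.43, adjusted p = 0.808). Its highest library was PBS replicate 1, and without it the log2 fold change was 0.24. LPS replicates 1 and 2 of these 3 genes lay within or below the PBS range.

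**Figure D4:**
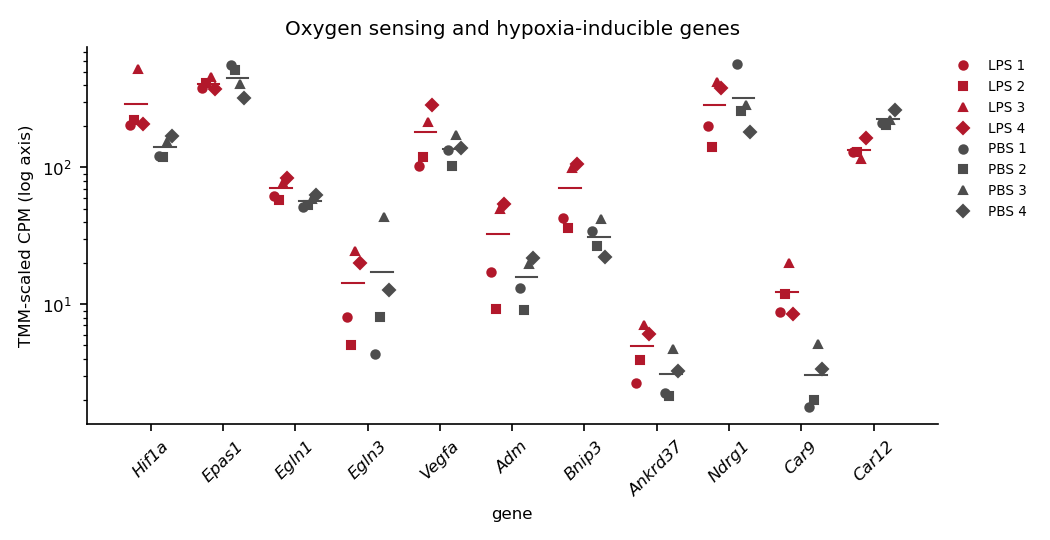
TMM-scaled CPM on a log axis of the 4 genes of oxygen sensing and the 7 hypoxia-inducible targets in LPS (red) and PBS (grey) libraries. Each replicate number has a symbol, and a bar marks the mean of 4. LPS replicates 3 and 4 (triangle and diamond) stand above LPS replicates 1 and 2 for Egln1, Egln3, Vegfa, Adm, Bnip3, Ankrd37 and Ndrg1.

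Many of the genes were high in the same libraries of a group. LPS replicates 3 and 4 were the highest LPS libraries for 16 of the 38 tested genes (42.1%), 5 of the 7 hypoxia-inducible targets among them, against 20.4% of all genes tested. LPS replicate 3 alone was highest of its group for 22 of 38 (57.9%), against 28.1% of all genes, and PBS replicate 3 for 20 of 38 (52.6%), against 20.7%. These genes were measured in the same libraries, so the counts are a description. Some of these genes had a wide spread within a group. The standard deviation of log2 CPM in LPS was 1.22 for Adm, 1.07 for Egln3 and 0.81 for Bnip3, larger than or equal to that of 96.7%, 95.1% and 90.8% of all genes tested, and 0.13 for Gpi and 0.16 for Ldha. The neutrophil marker sum was 696, 390, 883 and 1634 CPM in LPS replicates 1 to 4. It too was highest in replicates 3 and 4, as were all tested neutrophil markers but Cd177 and Mpo. The macrophage and monocyte sum was 1551, 2330, 1947 and 1756 CPM in LPS replicates 1 to 4, highest in replicate 2. The part of these cells in the pattern was not tested. A fit that left out LPS replicate 3 together with PBS replicate 3 was added with these values in view. In it 10 of the genes were higher, all among the 15, and Car12 was lower.

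**Figure D5:**
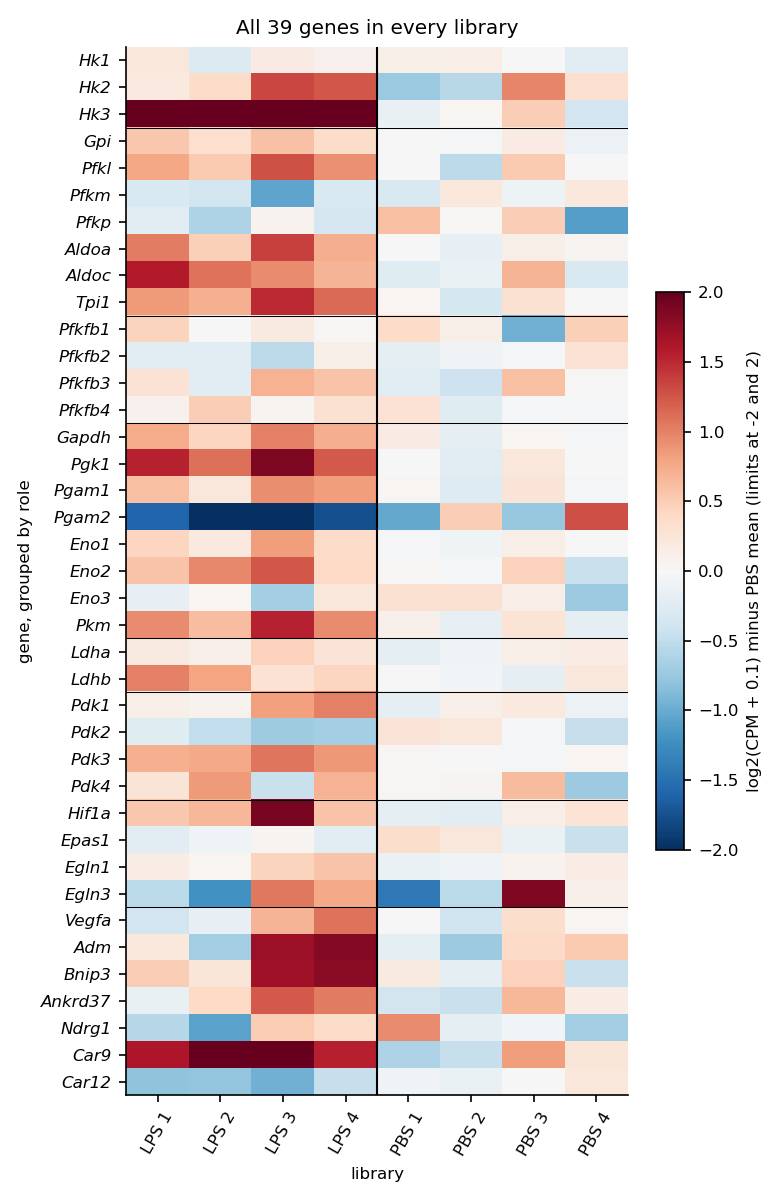
Log2(CPM + 0.1) of all 39 genes minus the mean of the 4 PBS libraries, for LPS (left) and PBS libraries (right), with lines between roles and colours limited at -2 and 2. Hk3, Pgk1, Tpi1, Pkm and Car9 are red in all 4 LPS libraries, whereas Adm, Bnip3, Vegfa and Ankrd37 are strongest in LPS replicates 3 and 4.

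Genes of the same pathways that are not among the 39 were read as 5 lists. Of 22 other tested genes of glycolysis and pyruvate use, 0 were higher and 3 lower, against 9.49% and 7.45% of all genes tested. Their median log2 fold change was -0.13. With edgeR 1 had a positive and 6 a negative change at an unadjusted p under 0.05. DESeq2 and limma-voom also called 0 of them higher, and called 4 and 2 of them lower. Pdha1, the catalytic subunit of pyruvate dehydrogenase, had 165, 152, 168 and 160 CPM in LPS, against 226, 222, 205 and 192 CPM in PBS (-0.39, SE 0.08, adjusted p = 0.0132). Pdhb, its partner subunit, was lower by a smaller margin, with 54.7 ± 2.28 CPM in LPS and 64.1 ± 2.77 CPM in PBS (SD, n = 4 each), and is named here with its value known (-0.23, adjusted p = 0.0425). Leaving out any 1 of the 8 libraries ended its call. In the pentose phosphate branch, which leaves glycolysis at its first intermediate, 0 of 7 genes were called in either direction with edgeR, DESeq2 or limma-voom, 0 had an unadjusted p under 0.05, and their log2 fold changes ran from -0.24 to 0.21.

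Among 13 tested glucose and lactate carriers, 4 were higher and 1 lower, against 9.49% and 7.45% of all genes tested. Slc16a3, the carrier by which glycolytic cells release lactate, had 58.8, 32.9, 98.3 and 103.9 CPM in LPS, against 10.7, 7.67, 32.2 and 21.8 CPM in PBS (2.02, SE 0.51, adjusted p = 0.0296). LPS replicates 3 and 4 were again high, and so was PBS replicate 3. Its call was lost without any 1 of LPS replicates 3 and 4 and PBS replicates 1, 2 and 4, with adjusted p up to 0.0703. Slc2a6, of the family of facilitative sugar carriers, had 7.90, 6.35, 22.3 and 21.6 CPM in LPS, against 4.14, 1.31, 2.61 and 2.55 CPM in PBS (2.45, SE 0.51, adjusted p = 0.0139). Slc16a1, a lactate carrier, and Slc5a1, a sodium-driven glucose carrier, were the others, named after their values were seen (1.29 and 2.24, adjusted p = 0.034 and 0.0382). Slc16a1 was not called without any 1 PBS library, and its value was 0.79 without LPS replicate 3. Slc5a1 was not called without any 1 of LPS replicates 1 and 2 and PBS replicates 1, 2 and 3 (adjusted p up to 0.107). Slc2a4, the insulin-responsive carrier of muscle and fat, was the lower gene, with 4.37, 2.66, 3.82 and 3.77 CPM in LPS, against 10.2, 7.95, 5.89 and 5.84 CPM in PBS (-1.03, SE 0.24, adjusted p = 0.0219). Leaving out PBS replicate 2 ended this call (adjusted p = 0.0644). Slc2a1, the chief glucose carrier of many cells and a HIF target, averaged 231 CPM in LPS and 164 CPM in PBS and did not pass (adjusted p = 0.191). The number of carriers called higher was 1 without PBS replicate 2 and 2 without PBS replicate 1, 3 or 4.

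Of 14 other tested genes of oxygen sensing, 3 were higher and 0 lower, against 9.49% and 7.45% of all genes tested. Arnt2, which pairs with HIF subunits, had 41.3, 51.0, 51.1 and 23.8 CPM in LPS, against 12.9, 11.0, 18.4 and 8.54 CPM in PBS (1.72, SE 0.30, adjusted p = 0.00672). Cited2, which competes with HIF for its coactivators, had 86.2, 64.9, 88.5 and 102 CPM in LPS, against 53.1, 49.6, 54.2 and 59.6 CPM in PBS (0.66, SE 0.13, adjusted p = 0.0127). Vhl, the protein that leads HIF to breakdown, was the third, named after its value was seen (0.31, adjusted p = 0.0244), and its call was lost without any 1 of LPS replicates 3 and 4 and PBS replicates 2, 3 and 4 (adjusted p up to 0.0661). Of 29 other tested hypoxia-inducible targets, 9 were higher and 1 lower, with a median of 0.20, beside the same shares of all genes tested. Angptl4, an inhibitor of lipoprotein lipase, had 128, 91.0, 262 and 114 CPM in LPS, against 20.6, 25.1, 24.2 and 11.0 CPM in PBS (2.88, SE 0.39, adjusted p = 0.0026). Cp, the copper protein ceruloplasmin and also an acute phase protein, had 1344, 1358, 907 and 1017 CPM in LPS, against 118, 122, 285 and 164 CPM in PBS (2.75, SE 0.31, adjusted p = 0.0013). Stc2, a secreted glycoprotein, was the lower gene, with 3.58 ± 1.65 CPM in LPS and 9.19 ± 2.004 CPM in PBS (SD, n = 4 each; -1.36, adjusted p = 0.0321). Its call was lost without any 1 of LPS replicate 1 and PBS replicates 1, 2 and 4 (adjusted p up to 0.0881). The count of 9 was 4 without LPS replicate 3 and 4 without PBS replicate 2.

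Promoters were read for the core letters of the element that HIF binds, ACGTG and GCGTG, on both strands, in the 250 bases before and the 50 bases after the start of each gene (RefSeq, assembly GRCr8). An entry was found for 37 of the 39 genes, and the first entry was used where a gene had several. At least 1 match was present in 22 of the 37 (59.5%), in 11 of the 14 genes called higher that had an entry (78.6%) and in 10 of the 21 genes that were not called (47.6%), against 58.7% of the promoters of genes tested and 41.6% of all 33469 promoters of that length. The letters are short and common, and a match is neither a bound site nor a cause. The promoters shown are those of the 4 called glycolytic or hypoxia-inducible genes with the lowest adjusted p that have an entry, Hk3 (chr17:9604781-9605080, plus strand), Car12 (chr8:76169565-76169864, plus strand), Tpi1 (chr4:159305039-159305338, minus strand) and Gapdh (chr4:159652418-159652717, minus strand), each 5′ to 3′ with the matches in capitals.
Hk3: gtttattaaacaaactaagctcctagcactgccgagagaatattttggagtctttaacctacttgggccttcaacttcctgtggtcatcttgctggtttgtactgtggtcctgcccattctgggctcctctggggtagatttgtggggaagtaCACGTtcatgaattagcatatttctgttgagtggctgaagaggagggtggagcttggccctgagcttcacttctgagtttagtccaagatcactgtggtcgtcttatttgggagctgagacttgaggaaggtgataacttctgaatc
Car12: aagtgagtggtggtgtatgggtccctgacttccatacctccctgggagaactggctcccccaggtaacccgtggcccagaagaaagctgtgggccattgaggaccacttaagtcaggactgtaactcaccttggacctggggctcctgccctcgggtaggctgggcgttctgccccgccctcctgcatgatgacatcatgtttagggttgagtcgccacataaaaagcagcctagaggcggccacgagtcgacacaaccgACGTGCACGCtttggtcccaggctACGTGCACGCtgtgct
Tpi1: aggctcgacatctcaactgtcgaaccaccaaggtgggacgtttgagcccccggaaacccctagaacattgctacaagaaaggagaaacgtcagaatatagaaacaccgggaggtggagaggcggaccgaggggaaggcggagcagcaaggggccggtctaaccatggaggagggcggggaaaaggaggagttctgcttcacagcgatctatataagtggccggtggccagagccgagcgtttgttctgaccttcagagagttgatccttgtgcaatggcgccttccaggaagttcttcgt
Gapdh: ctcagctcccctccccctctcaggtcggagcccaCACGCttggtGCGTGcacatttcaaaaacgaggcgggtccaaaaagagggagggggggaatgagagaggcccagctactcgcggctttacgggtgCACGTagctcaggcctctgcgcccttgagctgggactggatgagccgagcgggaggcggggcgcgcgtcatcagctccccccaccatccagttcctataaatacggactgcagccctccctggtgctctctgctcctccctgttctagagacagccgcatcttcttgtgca
Hk3 held 1 match, Tpi1 none in this window, and Gapdh 3. Car12, the gene that was lower in LPS, held 4, all of them within the first 50 transcribed bases.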

How the data were processed

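Gene-level read counts of 8 libraries from whole rat cervix, 4 LPS and 4 PBS, were used as the authors deposited them, in a table of whole-number counts by gene symbol. Per the submitters' processing notes, fastp, HISAT2, HTSeq and R 3.2.0 were used with the build mRatBN7.2. Of the annotation, the strand setting and the treatment of reads with several matches, nothing is given in the sources used here. Columns were matched to samples through library names, where LPS replicate 4 is library number 5, and 0 columns were left without a sample.

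Genes were kept with edgeR's filterByExpr at a minimum count of 10, scaled by TMM and tested with edgeR 4.0.16 (robust quasi-likelihood, R 4.3.3) over all 16117 genes. Adjusted p-values are Benjamini-Hochberg values with a threshold of 0.05. Values given in parentheses are the log2 fold change of LPS over PBS, its standard error and the adjusted p. CPM are not corrected for transcript length. A floor of 3 counts equals 0.0734 to 0.0899 CPM, and floors and intervals cover counting error only or the spread between these 8 libraries. The alternatives tried were scaling by RLE or by the upper quartile, no filter, a filter of 1 CPM in 4 libraries, DESeq2 1.42.0, limma-voom (limma 3.58.1), a replicate block and left-out libraries. The code was tested on simulated data. No libraries of a group agreed within sampling noise.

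The members and the gene lists were chosen with earlier results of these data known. Every member is accounted for. Called members are given library by library, as are, of each other list, the 2 called genes with the lowest adjusted p in each direction. The values of 1 gene that this rule names are not reported here. Genes named after their values were seen are marked. Sequences are from RefSeq (GRCr8), a build other than that of the counts, and protein sequences were not used here.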

Additional observations from a re-analysis of the deposited data

Results flagged for a closer look

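In 3 of 78 groups of 4 libraries, 1 library lay apart from the other 3 by more than Dixon's 95% critical value for the gap over the range. Chance gives about 5 in 100 such groups. Hif1a had 519 CPM in LPS replicate 3, where the next library of the group had 222 CPM. Pfkm had 36.3 CPM in the same library, with the next at 58.4 CPM. Aldoc had 18.5 CPM in PBS replicate 3, against 10.4 CPM in the next PBS library.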

How the results depend on the processing

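The median log2 fold change of the 38 tested genes stayed between 0.46 and 0.61 when 1 library was left out. Leaving out 1 library gave 7 to 13 of them higher and 1 to 2 lower, 904 to 1385 genes higher and 563 to 1199 lower over all genes, 1 to 3 carriers higher and 0 to 1 lower, 2 to 3 other glycolysis and pyruvate genes lower, 2 to 3 other oxygen sensing genes higher, and 4 to 10 other hypoxia-inducible targets higher and 0 to 1 lower. Smaller samples were tested in these fits, and the cause of the losses was not tested otherwise. Over fits without 1 library or a pair of libraries, signs turned for Hk1 (-0.016 to 0.19), Pfkfb1 (-0.17 to 0.26), Eno3 (-0.37 to 0.0041), Egln3 (-0.63 to 0.79) and Ndrg1 (-0.49 to 0.46), none of which was called.

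DESeq2 gave 2099 genes higher and 2089 lower over all genes, so that 50.1% of calls were higher (56.0% with edgeR). It gave 17 of the 38 higher (the 15, Bnip3 and Hif1a) and 3 lower (Car12, Pdk2 and Pfkm), 12 other targets higher and 2 lower, and 5 carriers higher. Without a filter 2 of the listed genes were lower (Car12 and Pgam2). Without both PBS replicate 1 and LPS replicate 2, 2 were lower, 0 other glycolysis genes were lower, 2 carriers were higher and 0 lower, and Ndrg1 was at 0.46. The fit without PBS replicate 3 and LPS replicate 3 together was chosen after seeing the data. It gave 745 genes higher and 428 lower, with 1 other glycolysis gene lower, 1 carrier higher and 0 lower, 1 other oxygen sensing gene higher and 5 other targets higher. Pfkfb1 was then at -0.17, Eno3 at 0.0041 and Egln3 at 0.40, and limma-voom put Egln3 at 0.011. The cause was not tested.

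Whether the replicate numbers pair the samples could not be decided from the correlations of so few libraries. Deviations of same-numbered libraries correlated at -0.134, -0.181, -0.0867 and 0.208, and those of other pairs at -0.215 to 0.24. With a replicate block, 14 of the 38 were higher, 13 of them among the 15, and 2 lower (Car12 and Pdk2). Hk2 was gained (0.78, adjusted p = 0.0168), and Aldoc and Ldhb were lost (adjusted p = 0.05016 and 0.05254). Egln3 was at 0.00592, and 1151 genes were higher and 845 lower over all genes.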
